A study of Vitis vinifera with 36 samples.

Results

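The step from post-bloom (S2) to pea size (S3) was followed in the seed traces of Thompson Seedless (TS), a seedless table grape. It compares the 3 arrays of TS at S3 with the 3 arrays of TS at S2, which are 6 of the 36 arrays in hand. The members are the probes of the deposited matrix: 22582 had a value on every array, each for 1 gene model, and 22203 of them were tested because in 1 or more of the 12 groups of variety and stage all 3 arrays read them well above background. The other varieties are Red Globe (RG) and Italia (IT), both seeded, and all 3 were also sampled before bloom (S1) and at veraison (S4), with 3 arrays in each group. All vines grew in 1 field collection with conventional management and received no hormone treatment, and the total RNA came from ovules or developing seeds. The labels name the tissue seeds and do not separate seed coat, endosperm and embryo, so in these bulk samples fewer cells of a kind and less RNA per cell cannot be told apart.

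Thompson Seedless berries set seed by stenospermocarpy: the egg cell is fertilised, but the seed stops growing some weeks later and stays in the berry as a soft trace. In a seeded berry the same weeks bring growth of the endosperm, hardening of the outer integument into the seed coat and the filling of that coat with flavanols. VviAGL11, the grape relative of SEEDSTICK of Arabidopsis, is the MADS-box gene tied to the trait.

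Levels are given as log2 signal minus the 75th percentile of the array, so that 0 is the level below which 3 in 4 probes of the matrix lie, and a difference of 1 is a change of 2-fold. A probe was called when the adjusted p of the limma fit over all 36 arrays was under 0.05 and the log2 difference was over 1 in either direction. The 3 arrays of S3 resembled each other (Pearson's r across probes 0.969 to 0.990), and so did replicates 1 and 2 of S2 (0.991). Replicate 3 of S2 stood apart, with r of 0.867 and 0.871 against the other S2 arrays. It was closer to RG S2 replicate 3 (0.946) and TS S1 replicate 3 (0.935), which lay on the same slide, and also to the 3 arrays of IT S2 (0.901 to 0.923), which did not. The counts below are therefore also given without it. Of the probes of the matrix, 85.0% to 97.3% were well above background on the S2 arrays, with the highest share on replicate 3, and 86.4% to 89.4% on the S3 arrays. A single slide held arrays of both groups, S2 replicate 1 and S3 replicate 3.

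From S2 to S3, 2964 of the 22203 probes were called (13.3%): 1713 were higher at S3 (7.72%) and 1251 were lower (5.63%). The rises had a median log2 difference of 2.30 and the falls of -2.14. Of these, 1019 probes rose and 684 fell by over 4-fold, 297 rose and 184 fell by over 16-fold, and 124 rose and 97 fell by over 32-fold. In 2921 of the called probes (98.5%) the 3 arrays of S2 and the 3 of S3 did not overlap, which was also so in 39.9% of all probes tested. On the shared slide all 1713 rises and all 1251 falls had the same direction, with medians of 2.47 and -2.20 (these 2 arrays also entered the test).

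Without S2 replicate 3 the count was 2947 (1779 higher and 1168 lower), of which 2443 were the same probes, and without its whole slide it was 3166 (1893 and 1273). With the slide as a fixed block it was 3276 (1964 and 1312) and with the scan session 3394 (2039 and 1355). The omission of the slide and the scan session were alternatives chosen after seeing the data. The balance of rises and falls depended on the scaling: 57.8% of the calls were rises in the main fit, 38.3% (482 of 1259) with no scaling between arrays, which moved the median over all probes from -0.07 to -0.69, and 68.1% (1092 of 1604) after normexp background correction, where that median was 0.14. Directions below are relative to the 75th percentile of each array.

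A functional description was in hand for 3730 of the tested probes, and 657 of these were called (17.6%): 325 rose (8.71%) and 332 fell (8.90%). Most of these descriptions belong to genes that the study had selected between seeded and seedless varieties on the same samples, so the counts of gene groups given here are not independent evidence of a direction. Among the other 18473 probes, 2307 were called (12.5%; 7.51% higher and 4.97% lower). The 2 largest rises and the 2 largest falls of these undescribed probes, chosen after their values were seen from the 1552 that were above background on all 6 arrays without overlap, show how large the step could be. GSVIVT01010385001 went from -3.34, -3.31 and -0.33 at S2 to 6.54, 4.90 and 4.99 at S3, and GSVIVT01010387001 from -3.59, -3.57 and -0.41 to 6.20, 4.80 and 4.81. Both scattered widely in other groups, with SDs of 3.03 and 2.86 at TS S1 and 2.65 and 2.65 at RG S3. Against the RG step the limma difference was called for GSVIVT01010387001 (adjusted p = 0.0440) and not for GSVIVT01010385001 (adjusted p = 0.0509). GSVIVT01018115001 went the other way, from 2.99, 3.04 and 1.90 to -5.48, -5.81 and -5.79, and GSVIVT01001774001 from 3.03, 2.83 and 0.63 to -3.60, -5.33 and -5.40. In each of these, S2 replicate 3 was the S2 array nearest to S3.

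The 12 largest rises were taken from the described probes that were above background on all 6 arrays and did not overlap between the stages. A pair of neighbouring AAA-type ATPases, members of a large family of ATP-driven protein-remodelling enzymes, came first. VIT_14s0066g02070 had levels of -4.40, -5.26 and -3.73 at S2 and 1.64, 1.58 and 2.02 at S3, which is 73.8-fold (log2 difference 6.21, SE 0.78, adjusted p = 3.91e-06). VIT_14s0066g02100 was at -4.00, -4.01 and -2.66 and then at 2.12, 2.51 and 2.20 (57.0-fold, log2 difference 5.83, SE 0.93). As neighbours in a family they may share signal between probes.

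Next was VIT_17s0000g03960, described as Fw2.2 ORFX after the tomato fruit weight gene that restrains cell division in the young fruit. Its levels were -5.68, -5.49 and -4.03 at S2 and 0.82, 0.38 and 0.61 at S3 (50.8-fold, adjusted p = 1.05e-05). SAG101 (VIT_05s0077g01720), which in Arabidopsis codes for a senescence-linked acyl hydrolase that also acts in immunity, went from -2.74, -2.68 and -2.15 to 3.26, 2.90 and 2.67. That rise of 44.3-fold had an adjusted p of 6.91e-07 and the arrays of each stage lay within 1 log2 unit of each other. The ethylene response factor VvERF021 (VIT_02s0025g04460) reached the highest level of the 12, with -1.10, -0.94 and 0.12 at S2 and 5.89, 4.17 and 4.14 at S3, but its spread across the series was wide (log2 difference 5.37, SE 1.46, adjusted p = 0.0123).

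The remaining leaders were VvWRKY06 (VIT_04s0008g01470, log2 difference 5.31), a transcription factor of a family known for defence and senescence, 3 neighbouring chitinases, a lectin (VIT_15s0024g00410, 5.01), the TIR-NBS-LRR resistance gene VIT_18s0041g02210 (4.93) and RGLG2 (VIT_00s0780g00040, 4.84), a RING-type ubiquitin ligase in Arabidopsis. Of these, VvWRKY06 was the most even at S3, at 1.35, 1.34 and 1.35 after -4.43, -4.45 and -3.01 at S2. A further 3 rises could only be bounded, because no S2 array was well above background: the F-box gene VIT_00s2507g00010 was at least 25.8-fold higher at S3, the abscisic acid receptor gene PYL4 (VIT_13s0067g01940) at least 20.9-fold and copper transporter 2 (VIT_03s0110g00370) at least 20.5-fold. These bounds set the mean of S3 against the lowest signal that still counted as above background on each S2 array. Copper transporter 2 also rose in RG and IT, with called fitted steps of 10.66 and 7.31 from S2 arrays all at background. The differences of those steps from TS were not called. In all, 82 called probes were above background on no S2 array and 281 on no S3 array.

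**Figure D1:**
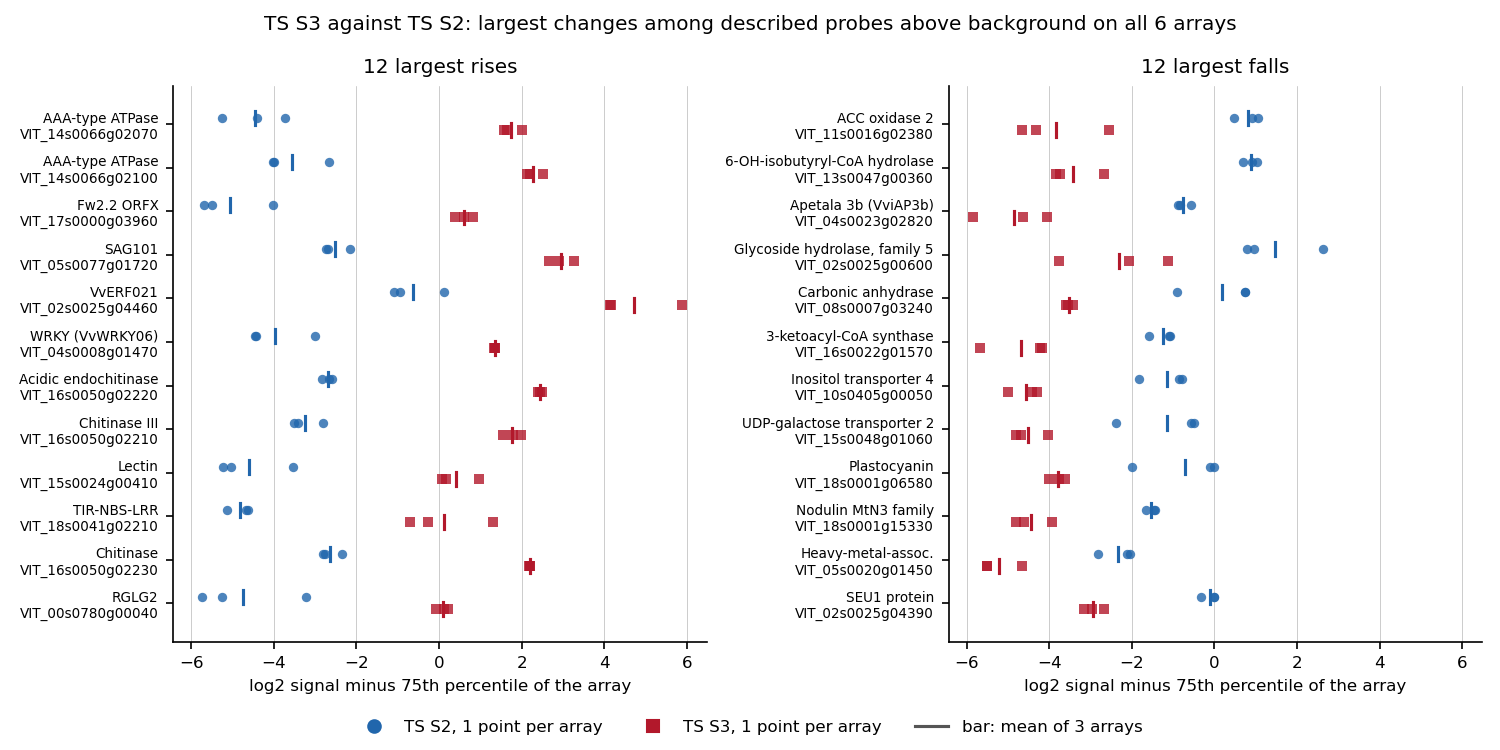
Level (log2 signal minus the 75th percentile of the array) of the 12 largest rises and the 12 largest falls from S2 to S3 among described probes above background on all 6 arrays; circles are the 3 TS S2 arrays, squares the 3 TS S3 arrays and bars their means. The rises span log2 differences of 4.84 to 6.21 and the falls of -2.82 to -4.65, and all 24 were chosen among probes whose stages did not overlap.

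Each gene group below is to be read against all probes, of which 7.72% rose and 5.63% fell. Every list member has a description, so the described probes, of which 8.71% rose and 8.90% fell, are the closer measure. Pathogen defence genes are taken first. Of 60 tested chitinase, resistance-gene, thaumatin, stilbene and WRKY probes, 21 rose and 2 fell, with a median log2 difference of 1.22, against 7.72% and 5.63% of all probes and a median of -0.07. The counts were the same without S2 replicate 3, with no scaling 14 rose and 2 fell, and after normexp correction 17 rose and 1 fell. Chitinases cut the chitin of fungal walls, and plants also make them during development. The acidic endochitinase CHIB1 (VIT_16s0050g02220) was at -2.67, -2.83 and -2.58 at S2 and at 2.39, 2.45 and 2.49 at S3, a rise of 35.2-fold (SE 0.56 on the log2 scale, adjusted p = 6.96e-07). Its neighbours rose by similar amounts, chitinase III (VIT_16s0050g02210) by 5.02 and VIT_16s0050g02230 by 4.84 on the log2 scale. In IT the 3 genes also rose, by 3.00, 3.17 and 2.95 in the same order, each called. Their steps in RG (0.89, 0.61 and 0.37) were not called. These 3 genes lie side by side and their probes may pick up each other's transcripts, so they may not be 3 separate rises.

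Resistance genes of the NBS-LRR kind, whose products sense pathogen proteins, made up most of the rest. The R gene VIT_15s0045g00710 was above background on no S2 array and on all 3 S3 arrays (at least 20.03-fold higher, adjusted p = 3.14e-04). TIR-NBS-LRR gene VIT_18s0041g02210 went from -5.14, -4.63 and -4.68 to 1.31, -0.26 and -0.71. The S3 arrays differed from each other by more than the S2 arrays did. Clustered resistance genes are close in sequence and open to the same doubt about shared signal. The 2 falls were thaumatin-like genes, chosen here after their values were seen: VIT_04s0023g03540 was above background on no S3 array and at least 9.01-fold lower, and VIT_15s0048g00020 fell by 2.55 on the log2 scale.

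Ethylene genes moved in both directions. ACC synthase makes ACC, from which ACC oxidase makes the hormone. Of 31 ethylene probes 9 rose (29.0%) and 3 fell (9.68%). All 9 rises were described as ACC synthase, ACC oxidase or ACC oxidase homolog. Such a homolog (VIT_05s0049g00430, log2 difference 3.10) is named by likeness and need not make ethylene. An ACC synthase (VIT_15s0046g02220) was at -9.65, -8.39 and -4.97 at S2, above background on 1 of these arrays, and at -2.15, -1.82 and -2.29 at S3 (log2 difference 5.59, adjusted p = 1.29e-04). ACC oxidase 1 (VIT_12s0059g01380) rose 11.7-fold, from -1.94, -1.98 and 0.17 to 2.11, 2.46 and 2.31 (adjusted p = 9.02e-05), while the level of S2 replicate 3 lay between the other S2 arrays and S3.

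ACC oxidase 2 (VIT_11s0016g02380), which makes the same product, was the largest fall among described probes above background on all arrays. Its levels were 0.92, 1.05 and 0.47 at S2 and -2.56, -4.32 and -4.65 at S3 (25.2-fold lower, log2 difference -4.65, SE 1.08, adjusted p = 0.00341). Without S2 replicate 3 the group had 11 rises and 4 falls, and with no scaling 2 rises and 3 falls, where its median turned from 0.27 to -0.35.

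Jasmonate, the other hormone of wounding and defence, is made by way of 12-oxophytodienoate reductase (OPR). Of 24 jasmonate probes 3 rose (12.5%), all of them OPR genes, and 1 fell (4.17%), the TIFY gene VvZML4 (GSVIVT01009198001, log2 difference -1.19, named after its value was seen). The OPR gene GSVIVT01025922001 went from -4.70, -4.96 and -2.74 to 0.83, -1.20 and -0.79 (13.4-fold, adjusted p = 3.00e-04) and VIT_18s0041g02090 from -3.02, -3.12 and -1.39 to 1.67, 0.45 and 0.51 (10.4-fold). In both, S3 replicate 1 was the highest array and S2 replicate 3 the highest of its stage. The third, VIT_18s0041g02040, rose by 1.72. Without S2 replicate 3 there were 5 rises and 1 fall, and with no scaling 2 and 0.

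Among detoxification genes the largest changes were in 2 clusters of tau-class glutathione S-transferases (GSTs), enzymes that join glutathione to toxic or oxidised compounds. Of 53 redox and detoxification probes, 8 rose (15.1%) and 2 fell (3.77%). As many rose in the seeded varieties, 8 in RG and 9 in IT. The step in TS was higher than in RG for 7 probes and lower for 5. GSTU8 genes VIT_08s0007g01400, VIT_08s0007g01410 and VIT_08s0007g01420 rose by 3.58, 3.59 and 3.51, and GSTU7 gene VIT_05s0049g01100 by 3.14 on the log2 scale. VIT_08s0007g01410 was at 1.20, 0.79 and 1.26 at S2 and at 4.67, 4.79 and 4.56 at S3 (adjusted p = 0.0215). The genes of each cluster are near copies and their probes may share signal. With no scaling limma called 0 probes of this group.

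Membrane transport was balanced, with 16 rises and 16 falls among 163 transporter and aquaporin probes (9.82% each, against 7.72% and 5.63% of all probes). Both shares were near those of described probes (8.71% and 8.90%). The counts were 21 and 13 without S2 replicate 3 and 4 and 7 with no scaling. ABC transporters VvABCG27 (VIT_13s0067g03750, above background on 2 S2 arrays) and VvABCB16 (VIT_14s0068g00210) rose by 3.47 and 3.37. Nitrate transporter 1:2 (VIT_17s0000g05640) fell by 3.48 and the tonoplast water channel TIP2;2 (VIT_00s0229g00130, above background on 2 S3 arrays) by 3.53. The nitrate transporter was at -2.99, -3.14 and -2.75 at S2 and at -6.87, -6.16 and -6.28 at S3, where 1 of 3 arrays was above background.

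Senescence and cell-death genes rose in 8 of 30 cases and fell in 1, against 10 rises in RG and 10 in IT, and the step in TS was higher than in RG for 1 probe and lower for 3. Apart from SAG101 and the aspartic protease VvAP10 (VIT_05s0020g00950, log2 difference 4.10, above background on 1 S2 array), the 6 other rises were neighbouring probes described as nodulin 1A, senescence-associated. VvAP10 also rose in RG and IT, with called fitted steps of 8.02 and 6.99 from S2 arrays all at background. The differences of those steps from TS were not called. VIT_03s0063g01330 went from -0.67, -0.66 and -0.28 to 2.50, 1.80 and 2.08 (6.33-fold) and VIT_03s0063g01220 from -0.43, -0.50 and -0.09 to 2.58, 1.81 and 2.01 (5.53-fold). As near copies, they may share signal between probes. The fall was BFN1 (VIT_00s0301g00100), a nuclease of dying and senescing tissue in Arabidopsis, by 2.22 on the log2 scale, named after its value was seen. With no scaling 2 of the 30 probes rose and 0 fell.

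Of 57 photosynthesis probes, 19 rose and 1 fell, with a median log2 difference of 0.70. Light-harvesting gene LHCA3 (VIT_15s0024g00040) was at 1.69, 1.79 and -0.31 at S2 and at 3.78, 4.33 and 4.22 at S3 (8.29-fold). Photosystem II subunit gene PSBX (VIT_04s0008g01730) went from -0.92, -0.96 and -1.40 to 1.31, 1.81 and 1.96 (6.89-fold). S2 replicate 3 was the lowest array in both, and without it 14 rose and 3 fell, with LHCA3 at a log2 difference of 2.37. With no scaling 1 rose and 1 fell and the median was 0.08. The same group also rose in the seeded varieties, with 31 of 57 in RG and 26 in IT.

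A pair of probes described as plastocyanin domain-containing protein, a copper-protein fold found in electron carriers and in wall proteins, moved in opposite directions within this group. VIT_12s0034g01140 was high at S3, with 4.63, 4.83 and 4.67 after 1.64, 1.45 and 1.81 (8.45-fold, adjusted p = 1.94e-04). VIT_18s0001g06580 fell 8.46-fold, from -0.02, -0.12 and -2.0 to -3.61, -4.01 and -3.75.

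Phenolic genes were read in 2 lists, whose difference was not tested. Of 27 probes for lignin and wall phenolics, 8 rose and 3 fell (1 and 3 with no scaling): a dirigent protein (VIT_06s0004g00990), which steers the coupling of lignin-type units, rose from 0.15, 0.27 and 0.51 to 3.02, 3.29 and 3.07, a peroxidase (VIT_06s0004g01180) rose by 2.38 and the hydroxycinnamoyl transferase VIT_18s0001g10200 (above background on 2 S2 arrays) by 3.43, while a laccase (VIT_18s0001g02400) was above background on no S3 array and at least 4.03-fold lower. Of 50 flavonoid probes 4 rose and 4 fell in TS (0 and 3 with no scaling), against 21 and 20 rises in RG and IT. Rises included the isoflavone 2'-hydroxylases VIT_00s0705g00010 (log2 difference 1.93) and VIT_07s0129g00710 (1.82).

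A run of 3 neighbouring genes described as isoflavone or orcinol O-methyltransferases were the largest falls of that list. VIT_12s0028g02800 was at -0.99, -0.75 and -2.74 at S2 and at -7.67, -8.97 and -7.09 at S3, above background on none of the S3 arrays (at least 43.2-fold lower, adjusted p = 1.68e-05). VIT_12s0028g02840 was at least 29.2-fold lower, and VIT_12s0028g02740 was above background on 1 S3 array and fell by 5.57 on the log2 scale. Enzymes of this kind make methylated phenolic scent compounds in rose. The cluster was low before bloom as well, at a mean of -6.20 (SD 1.00, n = 3) for VIT_12s0028g02800, so that in TS it was high at S2 alone among the 4 stages (S4 mean -7.83). The probes may share signal.

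Of 31 DNA replication and histone probes, 16 fell and 1 rose, with a median log2 difference of -1.42, and 30 of 31 had a negative value. The count was 16 and 1 without S2 replicate 3 and 11 and 1 with no scaling. Histones package new DNA, and their genes are read mostly while cells copy their genome. Histone H2AXb (VIT_07s0104g00960) was at 4.16, 4.11 and 3.63 at S2 and at 1.79, 1.15 and 1.31 at S3 (5.84-fold lower, adjusted p = 5.72e-04). Histone H3 (VIT_00s0160g00180) fell from 2.05, 2.33 and 1.18 to -0.01, -1.02 and -0.81. Histone H4 gene VIT_13s0019g00800 showed the largest difference, -4.27, with S3 arrays as far apart as -3.20, -4.43 and -7.76, of which 2 were above background. The rise was a histone H2A (VIT_00s0259g00020), from -5.78, -6.08 and -5.97 to -2.68, -2.86 and -2.64.

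Of 69 cell-cycle probes 9 fell and 1 rose, with a median of -0.77 and negative values in 66. Cyclin D (VIT_07s0129g01100), which starts the cycle, went from 0.09, 0.11 and -1.49 to -1.98, -2.93 and -3.13 (4.76-fold lower, adjusted p = 0.00349), and cyclin A3;1 (GSVIVT01009399001) from -2.23, -2.14 and -2.0 to -2.77, -4.23 and -4.57. Condensin subunits 1 (VIT_08s0007g05500) and 3 (VIT_07s0095g00780), which compact chromosomes, fell by 1.81 and 1.69. Without S2 replicate 3 there were 6 falls and 1 rise, and condensin subunit 3 then had an adjusted p of 0.125. The rise was cyclin delta-2 (VIT_01s0026g00710, log2 difference 1.56), named after its value was seen. In the seeded varieties 4 probes of this list rose in RG (5.80%) and 3 in IT (4.35%). These shares were near those of all probes (5.51% and 4.12%) and below those of all described probes (16.1% and 11.6%). Of 133 ribosomal and translation probes limma called 2, both lower, and an unadjusted p under 0.05 was reached by 2 higher and 4 lower. Ribosomal protein S16 (VIT_18s0001g14620) was one of these, with S3 arrays at -4.26, 0.23 and 0.08, of which replicate 1 alone was far below S2.

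**Figure D2:**
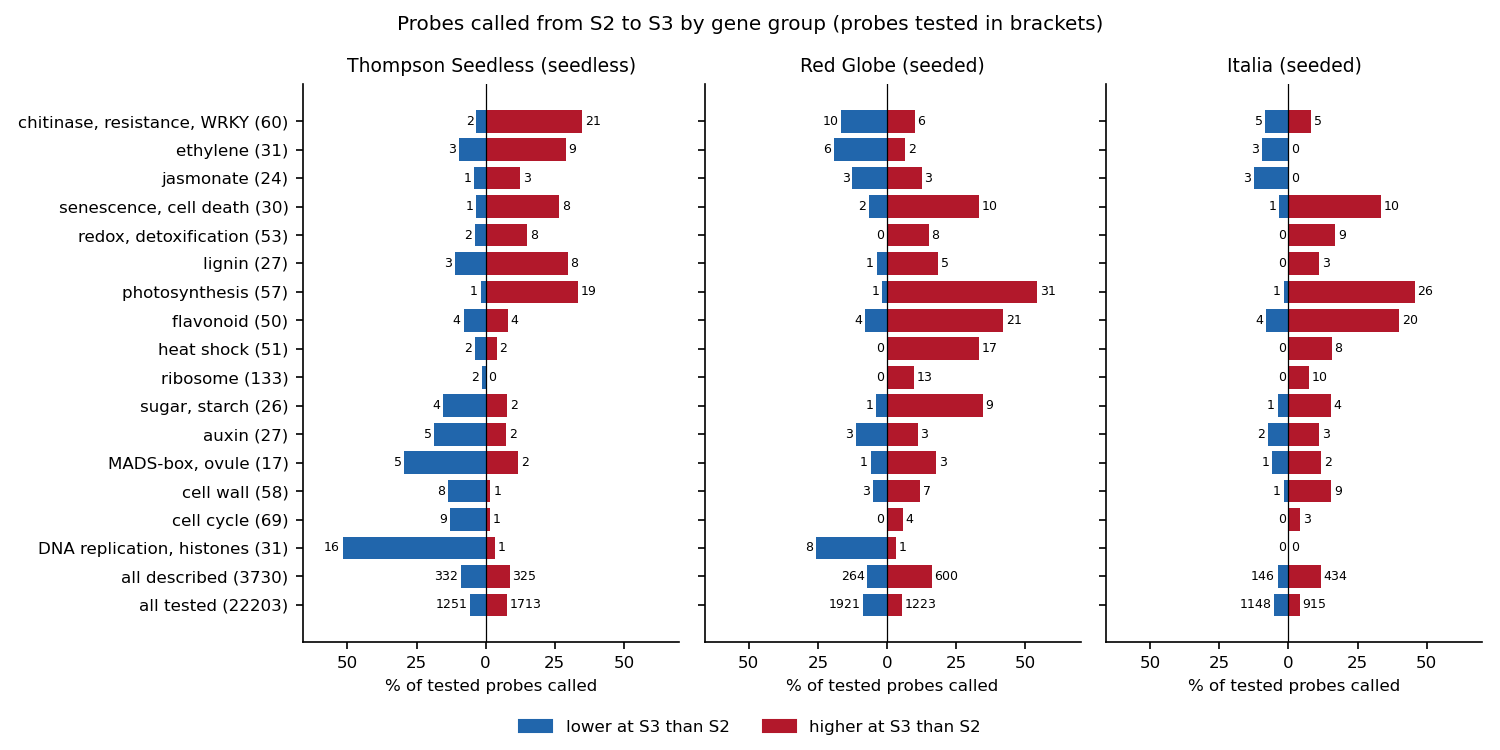
Share of tested probes (%) called higher (red, to the right) or lower (blue, to the left) at S3 than at S2, by gene group, in TS, RG and IT; the number beside each bar is the count and the number in brackets the probes tested. In TS 21 of 60 defence probes rose and 16 of 31 replication and histone probes fell, while flavonoid rises numbered 4 in TS, 21 in RG and 20 in IT.

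MADS-box factors set the identity of floral organs and ovules, and of 17 MADS-box and ovule or integument probes 5 fell and 2 rose, with a median of -1.49 (6 and 1 without S2 replicate 3, 4 and 0 with no scaling, and a median of -0.18 after normexp correction). VviAP3b (VIT_04s0023g02820), of the class that sets petals and stamens, was at -0.58, -0.83 and -0.89 at S2 and at -5.85, -4.65 and -4.06 at S3, or 17.0-fold lower (adjusted p = 6.63e-06). VviAG1 (VIT_12s0142g00360), of the class that sets stamens and carpels, fell 4.57-fold, from 1.14, 1.44 and -0.12 to -1.77, -1.05 and -1.30. VviFUL2 (VIT_14s0083g01030) went from -3.21, -3.42 and -4.42 to -5.83, -5.48 and -6.16. VviAGL15a (VIT_13s0158g00100), whose Arabidopsis relative is active in embryos, went from 0.79, 0.54 and 0.00 to -0.98, -1.71 and -1.5 (adjusted p = 0.00106). The stages did not overlap in the latter 3 genes, while VviAP3b was chosen with that condition. SEU1 (VIT_02s0025g04390), a relative of SEUSS, which acts with MADS-box factors in Arabidopsis flowers, fell 7.04-fold, from -0.02, -0.01 and -0.32 to -3.16, -2.67 and -2.96.

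The MADS-box gene VviMADSD2a (VIT_04s0008g01980) rose, from -5.83, -6.70 and -4.83 to -3.40, -3.95 and -3.99, with 2 S2 arrays above background and an adjusted p of 0.04998, and with no scaling or after quantile normalization no rise of the list was called. VviAGL11 (VIT_18s0041g01880) itself was at 2.17, 2.40 and 2.40 at S2 and at 3.17, 3.33 and 3.26 at S3. Its arrays did not overlap, but the difference of 0.93 (SE 0.42, adjusted p = 0.149) was not called. That SE draws on the spread of all 12 groups, while the SD was 0.13 at S2 and 0.08 at S3. A difference under 1 could not be called at any p, so the lack of a call does not mean that the level stayed the same. In the seeded varieties the step of VviAGL11 was 1.52 in RG and 2.02 in IT, both called. The differences of these steps, -0.58 (SE 0.60, adjusted p = 0.676) against RG and -1.08 (SE 0.60, adjusted p = 0.272) against IT, were not.

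Of the integument and endosperm genes that the study names, inner no outer (VIT_01s0127g00330), which marks the outer integument in Arabidopsis, was at -3.57, -3.31 and -4.13 and then at -4.17, -5.62 and -5.69 (difference -1.49, adjusted p = 0.0574). EDE1 (VIT_05s0094g00420), a microtubule protein of the Arabidopsis endosperm, was at -3.67, -3.65 and -3.29 and then at -4.21, -4.58 and -4.08 (-0.76, adjusted p = 0.370). Neither was called. Among 14 embryo and endosperm probes limma called 2, both lower (unadjusted p under 0.05 in 6 lower and 0 higher): Wuschel related homeobox 1 (VIT_17s0000g02460), of a family that patterns meristems and embryos, by 3.26 with 1 S3 array above background, and EMB2219 (VIT_03s0063g02590) by 2.26, the latter with S3 arrays at -6.41, -2.72 and -3.41, 2 of them above background, and an adjusted p of 0.0902 without S2 replicate 3. The leafy cotyledon1-like gene VIT_00s0956g00020, a marker of embryos, was at -1.46, -1.5 and -3.10 and then at -3.79, -4.80 and -4.46 (-2.33, adjusted p = 0.116). One ABI3 probe (VIT_07s0005g05400) was above background on no array of either group, and the other, VIT_10s0071g00270, was at a mean of -0.73 and then -1.5 without a call.

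Of 12 storage-type and late seed probes 1 was called, a lipid transfer protein (VIT_03s0017g02260) that rose from 2.89, 2.97 and 2.53 to 4.01, 4.26 and 4.23 and had an adjusted p of 0.0816 without S2 replicate 3. The flavanol enzymes of the seed coat were well above background on all 6 arrays at both stages. Anthocyanidin reductase (VIT_00s0361g00040) was at 3.10, 2.81 and 4.56 at S2 and at 4.49, 4.01 and 4.34 at S3, and leucoanthocyanidin reductase 1 (VIT_01s0011g02960) at 0.23, 0.06 and 2.17 and then at 1.78, 1.65 and 1.89. In both, S2 replicate 3 was as high as the S3 arrays or higher, and neither was called (adjusted p of 0.483 and 0.361).

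The 3 genes that the study put forward as targets of VviAGL11 were not called in this step. The study rested them on reporter assays, overexpression in leaves, in situ hybridization, co-expression and differences between seeded and seedless varieties at S3. A step within TS does not test that evidence. Isoflavone reductase VviIFR (VIT_03s0038g04700) was at 4.21, 4.19 and 4.31 and then at 5.12, 4.73 and 4.67 (0.60, SE 0.36, adjusted p = 0.295), against steps of 2.74 in RG and 2.83 in IT. The difference of the steps was called in both cases, at -2.14 (adjusted p = 0.00749) against RG and -2.23 (adjusted p = 0.00550) against IT. Methyl jasmonate esterase VviMJE (VIT_00s0253g00080) was at 1.03, 1.03 and -0.76 and then at 0.17, 0.39 and 0.46 (-0.10, SE 0.68), with a called difference from the RG step of -3.26 (adjusted p = 0.0334) and none from the IT step (-1.12, adjusted p = 0.514). Its S2 arrays lie on both sides of S3, with replicate 3 the low one. The auxin glucosyltransferase VviGT3 (VIT_03s0180g00320) was at 1.84, 1.80 and 3.78 and then at 3.86, 4.14 and 4.16. Its difference was 1.59 (adjusted p = 0.0781) with all arrays and 2.24 (adjusted p = 0.0151) without S2 replicate 3, which was nearly at the level of S3.

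Cell-wall enzymes fell in 8 of 58 cases (13.8%) and rose in 1 (1.72%), with a median of -0.72. Without S2 replicate 3 the counts were 7 and 1. A polygalacturonase (VIT_13s0064g00750), which cuts pectin, was at -0.07, 0.13 and -0.44 at S2 and at -7.52, -6.93 and -8.52 at S3, above background on none of these (at least 106.97-fold lower, adjusted p = 4.32e-07). The pectinesterase PPME1 (VIT_11s0016g00510) was at least 15.3-fold lower, the xyloglucan endotransglucosylase VIT_06s0061g00550 at least 7.01-fold lower, and pectinesterase VIT_05s0077g00890, above background on 1 S3 array, fell by 4.65 on the log2 scale. The other bound of this size was a leucine-rich repeat protein kinase (VIT_05s0062g01100), at least 66.9-fold lower, with S2 levels of -0.01, -0.09 and -2.49. The rise was the extensin LRX2 (VIT_03s0063g00010, 2.27), named after its value was seen.

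The rest of the 12 largest falls are of varied function. The hydrolase VIT_13s0047g00360, of valine breakdown, went from 1.03, 0.90 and 0.68 to -2.68, -3.83 and -3.74 (19.6-fold lower, adjusted p = 1.73e-06). Carbonic anhydrase (VIT_08s0007g03240) went from 0.73, 0.73 and -0.91 to -3.43, -3.55 and -3.60 (13.1-fold), and 3-ketoacyl-CoA synthase VIT_16s0022g01570, which lengthens fatty acids for wax and cutin, from -1.08, -1.09 and -1.57 to -5.69, -4.22 and -4.17 (10.9-fold). Its neighbour VIT_16s0022g01580, above background on 1 S3 array, fell by 3.76. Inositol transporter 4 (VIT_10s0405g00050, -3.41), UDP-galactose transporter 2 (VIT_15s0048g01060, -3.36), an MtN3-type gene of the sugar-exporter family (VIT_18s0001g15330, -2.93) and a heavy-metal-associated protein (VIT_05s0020g01450, -2.90) complete the list of 12. The fall of glycoside hydrolase VIT_02s0025g00600 (0.96, 0.79 and 2.62, then -3.78, -2.07 and -1.13) was the only 1 of the 24 largest described changes that was lost without S2 replicate 3 (adjusted p 0.0360 with it and 0.131 without).

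In lipid, cutin and wax metabolism as a whole, 9 of 86 probes rose (10.5%) and 8 fell (9.30%), against 7.72% and 5.63% of all probes. Both shares were near those of described probes (8.71% and 8.90%). With no scaling 2 rose and 4 fell. The rises were led by a class 3 lipase (VIT_07s0141g00360, 4.15), the wax gene CER1 (VIT_15s0045g01600, 3.66, above background on 2 S2 arrays) and an acyltransferase (VIT_19s0090g00330, 3.57, on 1). Sugar and starch probes rose in 2 of 26 cases (7.69%) and fell in 4 (15.4%). The rises were both invertase or pectin methylesterase inhibitors (VIT_16s0022g00960, 3.28, and VIT_16s0022g00870, 3.14, the latter above background on 2 S2 arrays). The falls included sucrose-phosphate synthase (VIT_05s0029g01140, -2.55) and galactinol synthase (VIT_01s0127g00470, -2.02), each above background on 2 S3 arrays. Terpenoid and cytochrome P450 probes rose in 3 of 59 cases (5.08%) and fell in 2 (3.39%), with CYP714A1 (VIT_03s0167g00190) up by 3.69 and CYP721A1 (VIT_18s0001g12180) at -1.65. Heat shock genes, 17 of which rose in RG and 8 in IT, gave 2 rises and 2 falls of 51 in TS, none over 9.04-fold, which was heat stress transcription factor A3 (VIT_08s0007g03900, above background on 2 S2 arrays).

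Growth hormone genes moved in both directions. Of 27 auxin probes 5 fell and 2 rose (2 and 3 without S2 replicate 3): GH3 gene VIT_07s0005g00090, whose enzymes conjugate auxin to amino acids, fell from -2.48, -2.61 and -1.84 to -6.0, -7.45 and -7.0, above background on 1 of these, while GH3-like VIT_12s0059g01870 rose by 2.64 and auxin-responsive VIT_05s0062g00850 by 2.56. Of 25 gibberellin, cytokinin and brassinosteroid probes 7 fell and 4 rose (6 and 0 with no scaling). Of the 7 falls, 6 were small gibberellin-regulated peptides of the GASA or snakin kind, such as GASA4 (VIT_16s0148g00090), from 0.94, 1.64 and 1.48 to -1.13, -1.77 and -1.07 (6.39-fold lower), GASA like (VIT_17s0000g06210, -2.79) and Snakin-1 (VIT_07s0129g00580, -2.48). Brassinosteroid-6-oxidase (VIT_01s0011g00170) was above background on no S3 array (at least 3.26-fold lower), and after normexp correction its difference was 0.13.

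Abscisic acid and drought probes rose in 4 of 43 cases (9.30%, near the 7.72% of all probes) and fell in 1 (2.33%). With no scaling the counts were 1 and 2. Beside PYL4, the rises were HVA22a (VIT_03s0038g01650), from -0.85, -1.03 and -1.25 to 2.40, 1.03 and 1.26, HVA22c (VIT_01s0026g02190, 2.37) and ASR2 (VIT_18s0072g00380, 1.93), while HVA22H (VIT_03s0038g01370) was at least 8.68-fold lower. HVA22 proteins were first known from barley as responsive to the hormone. Of 6 NAC factors 2 fell, VvNAC58 (VIT_12s0055g00510, -2.17) and VvNAC13 (VIT_02s0012g01040, -1.65). Without S2 replicate 3, 1 rose and 1 fell.

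Markers of other tissues were read beside these groups. Of 5 pollen and anther probes limma called 0 (1 lower and 0 higher at an unadjusted p under 0.05), and their summed level, in units of each array's 75th percentile, was 34.5 to 55.7 at S2 and 38.6 to 44.5 at S3. Of 8 berry skin and flesh probes 2 rose and 2 fell, and their summed level rose from 23.4 to 26.9 at S2 to 52.2 to 93.1 at S3. That sum was carried by ASR2, abundant in ripening berries, which was at 4.31, 4.37 and 3.72 at S2 and at 5.38, 6.39 and 6.42 at S3. The other rise was anthocyanidin 3-O-glucosyltransferase VIT_03s0017g02000 (2.25), and the falls were VIT_13s0019g03430 (-3.86, above background on 1 S3 array) and VIT_19s0085g00800, which was above background on 2 S2 arrays and no S3 array. The part of berry tissue in the changes from S2 to S3 was not tested, and the summed level of the list was higher on every S3 array than on any S2 array.

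The step was then compared with the same step in RG and IT, which share no arrays with it. RG and TS arrays lay together on 7 slides, while the IT arrays lay on 5 other slides scanned in other sessions. A difference between TS and IT therefore cannot be told apart from one between slides or sessions. IT S2 replicate 2 had 73.4% of probes well above background, against 95.8% and 96.8% on the other IT S2 arrays. In RG 3144 probes were called (14.2%; 1223 higher, 5.51%, and 1921 lower, 8.65%) and in IT 2063 (9.29%; 915 higher, 4.12%, and 1148 lower, 5.17%). Of the 1713 rises in TS, 298 also rose in RG (17.4% of the TS list and 24.4% of the RG list) and 148 fell there. With IT it shared 218 rises (12.7% and 23.8%), and 106 fell in IT. The falls were shared more often: 570 of 1251 fell in RG too (45.6% of the TS list and 29.7% of the RG list) and 10 rose there, while 286 fell in IT (22.9% and 24.9%) and 15 rose. Over all probes the differences correlated with r = 0.40 against RG and 0.18 against IT, across probes, which are not independent replicates. The median difference of the TS rises was 0.13 in RG and -0.19 in IT, and that of the TS falls -1.43 and -0.69.

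The difference of the steps was tested in the same fit. Against RG, 1735 probes were called (7.81%), 1308 with the higher step in TS (5.89%) and 427 with the lower (1.92%). Against IT there were 2344 (10.6%), 1569 higher (7.07%) and 775 lower (3.49%). Without S2 replicate 3 the counts were 1893 and 2244. Called in all 3 tests, the step in TS and its difference from RG and from IT, were 613 rises (35.8% of the TS rises) and 65 falls (5.2% of the TS falls). Conversely 156 probes rose and 225 fell in all 3 varieties.

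**Figure D3:**
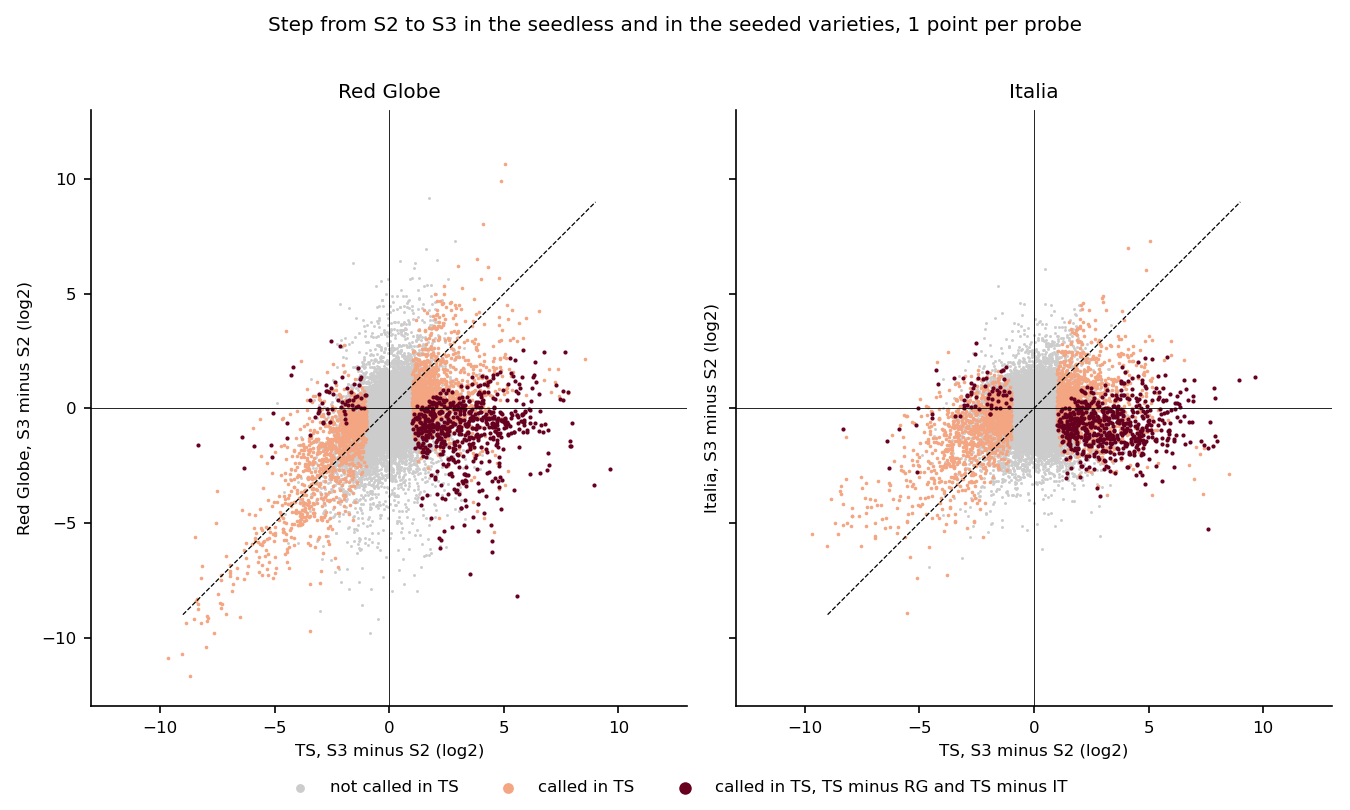
Log2 difference of S3 minus S2 in TS (horizontal) against the same difference in RG or IT (vertical), 1 point per tested probe; orange points were called in TS, and dark points also in the difference of the steps from both RG and IT. The 613 dark points on the right outnumber the 65 on the left, and the dashed line marks equal steps.

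The gene lists are set here against the described probes, of which 16.1% rose and 7.08% fell in RG, 11.6% rose and 3.91% fell in IT, 5.01% had a higher and 8.12% a lower step in TS than in RG, and 5.01% a higher and 9.79% a lower step than in IT. In the defence list 18 of the 60 probes had a called higher step in TS than in RG and 17 than in IT, and 11 were called in all 3 tests. In RG 6 of these probes rose and 10 fell. For flavonoid genes the difference ran the other way, with 12 of 50 probes lower in the TS step than in either RG or IT and 4 and 2 higher. Cell-wall probes were lower in 12 of 58 cases against RG and 9 against IT. Replication and histone genes were lower than in IT in 15 of 31 cases and than in RG in 1, and in RG 8 of the 31 fell. Ethylene probes were higher in 5 of 31 cases against RG and 7 against IT, and transport probes higher in 23 of 163 and 15. These counts depended on the scaling: with none, the step was higher in TS than in RG for 7 defence, 4 transport and 0 ethylene probes and lower for 5 flavonoid and 8 cell-wall probes, and after normexp correction the numbers were 13, 20, 4, 7 and 4 in the same order.

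The largest single differences against RG, among described probes above background on all 12 arrays, came from genes that fell in RG at this step. A monooxygenase (VIT_04s0044g00220) led, with a difference of 7.20 (adjusted p = 0.00143), from a fall of 4.67 in RG and a value of 2.53 in TS that was not called with all arrays (adjusted p = 0.0862) and was called without S2 replicate 3 (3.34, adjusted p = 0.0354). Sulfate transporter 3.1 (VIT_05s0020g03970, 5.99) fell by 5.0 in RG and had 0.99 in TS (adjusted p = 0.242). The OPR gene GSVIVT01025922001 (5.89), the anthocyanidin glucosyltransferase VIT_03s0017g02000 (5.61) and the ABC transporter PDR12 (VIT_09s0002g05390, 5.61) followed. PDR12, of a family that exports terpenoids and other defence compounds, was the most even of these, with -1.46, -1.82 and -1.39 at S2 and 1.51, 1.36 and 1.64 at S3 in TS (8.35-fold, adjusted p = 5.12e-06), and fell in RG (-2.55) and in IT (-2.27).

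In the other direction stood genes that rose in seeded seed and were not called in TS. The aspartic protease VvAP34 (VIT_14s0060g00330) rose by 4.56 in RG and 3.44 in IT and was at 1.65, 1.93 and 1.47 and then at -1.20, -0.17 and 0.04 in TS (-2.13, adjusted p = 0.133), so that the steps differed by -6.69 and -5.57. A bHLH factor (VIT_14s0108g00420) rose by 3.95 in RG and 2.64 in IT against -1.45 in TS (adjusted p = 0.209), and the MtN3-type gene VIT_17s0000g00830, of the sugar exporters, by 3.06 and 2.74 against -1.92 (adjusted p = 0.108). A pair of neighbouring universal stress protein genes, VIT_14s0060g01300 and VIT_14s0060g01320, rose by 4.71 and 4.73 in RG alone, with -0.33 and -0.30 in TS and -0.39 and -0.14 in IT.

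Levels at the neighbouring stages place the step within the life of the seed trace. From S1 to S2 776 probes were called in TS (3.50%), and from S3 to S4 5536 (24.9%), comparisons that share arrays with this one and are therefore set beside it as levels. CHIB1 was at -4.23 (SD 1.71), -2.69 (SD 0.13), 2.44 (SD 0.05) and -5.02 (SD 0.38) from S1 to S4 in TS (n = 3 at each stage), a peak at S3 (VIT_16s0050g02220). Its mean was highest at S3 in RG (-1.94) and IT (-1.35) as well. The ATPase VIT_14s0066g02070 was at -1.89 (SD 2.37), -4.46 (SD 0.77), 1.75 (SD 0.24) and -5.66 (SD 0.34), with S1 arrays that scattered widely. SAG101 (VIT_05s0077g01720) stayed higher at S4, at 0.22 (SD 0.50), after 2.94 (SD 0.30) at S3. VviAGL11 (VIT_18s0041g01880) was at 2.88 (SD 0.78), 2.32 (SD 0.13), 3.26 (SD 0.08) and 1.44 (SD 1.04), so its stages before S4 lay within about 1 log2 unit, while in RG it was at 5.50 (SD 0.25) at S3 and 5.60 (SD 0.20) at S4. VviAG1 (VIT_12s0142g00360) was at 0.82 (SD 0.83) at S2, -1.37 (SD 0.36) at S3 and 0.77 (SD 1.61) at S4, where the difference of S4 from S3 was called (2.15, adjusted p = 0.00254).

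**Figure D4:**
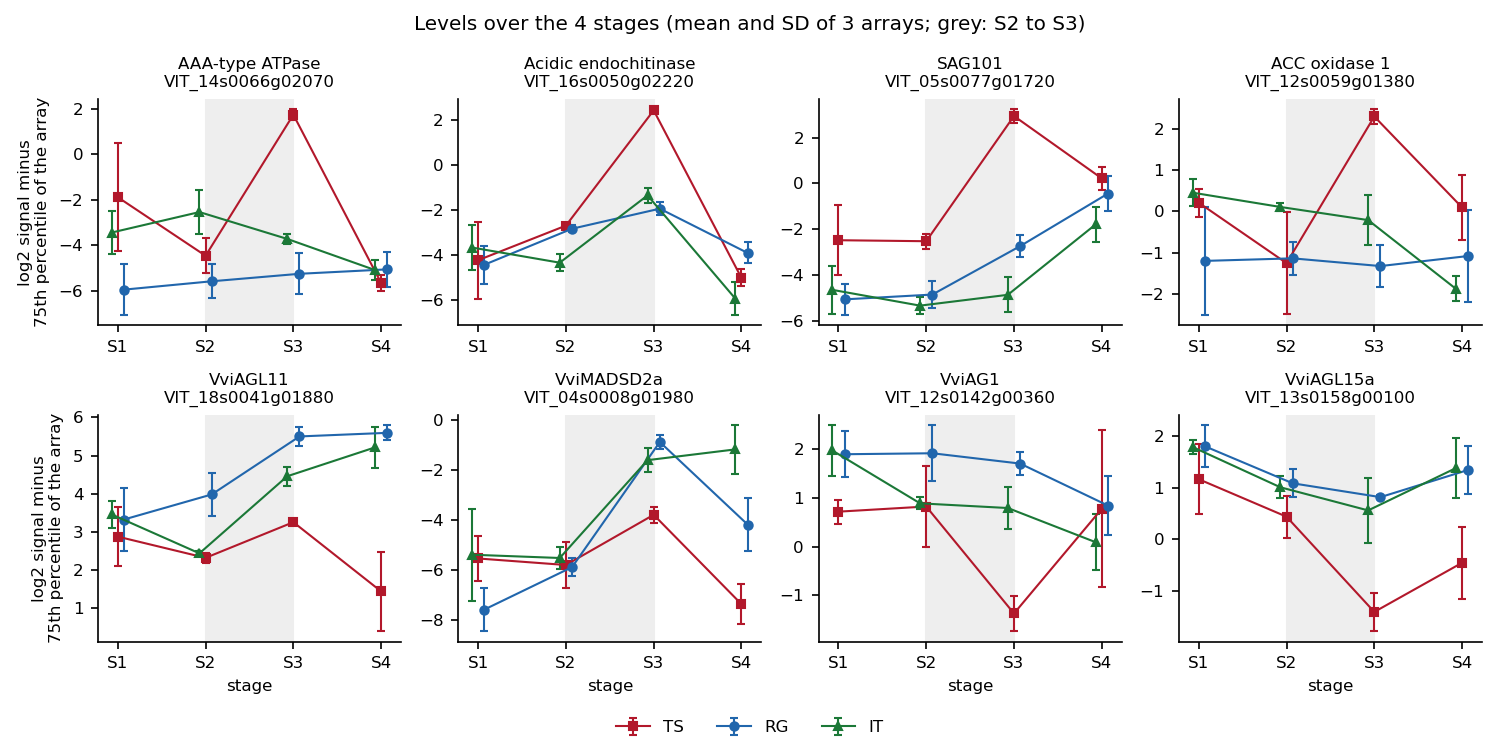
Level (log2 signal minus the 75th percentile of the array, mean with SD of 3 arrays) at the 4 stages in TS (red squares), RG (blue circles) and IT (green triangles) for 8 genes; the grey band is the step from S2 to S3. In TS the ATPase, CHIB1 and ACC oxidase 1 peak at S3, whereas VviAGL11 reaches 3.26 there against 5.50 in RG and 4.46 in IT. The mean of CHIB1 is also highest at S3 in RG and IT, at lower levels.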

How the data were processed

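RNA of ovules and developing seeds was labelled with Cy3 and hybridised to a custom 1-colour Agilent grapevine array, 36 arrays in 12 groups. The authors deposited the processed intensity of each spot from Feature Extraction (version 10.7.1.1 per the file headers) and a matrix of mean intensity per probe. Of the matrix values, 99.96% lay within 0.1% of the unscaled processed intensity, so the 75th percentile scaling that the methods describe was applied here. Array totals carry no read depth, and the number of arrays limits the precision.

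Unflagged spots were averaged per probe, log2 was taken and the 75th percentile of each array over the matrix probes was subtracted. A probe was tested (22203 of 22582) where any group had it well above background on each of its 3 arrays. The 12 group means were estimated together with limma 3.58.1 in R 4.3.3, leaving 24 residual degrees of freedom, with Benjamini-Hochberg adjustment over all tested probes. The labels do not say that replicates came from separate vines, although the series design calls them biological. The p-values therefore measure the spread between these samples, estimated over all 12 groups and not from the compared arrays alone. For single values of 3 against 3 arrays an exact test cannot go below 0.1, and none is given. The code was tested on simulated data.

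Gene IDs and descriptions came from tables accompanying the study; V1 gene IDs were paired with 3805 tested probes, and other probes keep their V0 model. Columns of those tables that hold the authors' own comparisons were not used. Named genes were the 12 largest described rises and falls above background on all 6 arrays without overlap, up to 4 called members of each of 26 gene lists, genes the study names, the 5 largest differences from RG in each direction and the 3 largest bounds in each direction; the few others are marked. Members and lists were chosen with earlier results of these data known. Alternatives covered scaling, background correction, filters, blocks, weights, the methods' t-test and the omission of each array. The scan session as a block and the omission of a slide were chosen after seeing the data. Autumn Royal was not analysed here.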

Additional observations from a re-analysis of the deposited data

Results flagged for a closer look

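The results below are named genes whose step from S2 to S3 differed between TS and a seeded variety by a test of the difference itself (limma, adjusted p under 0.05 and over 1 on the log2 scale). Values are the step in TS minus the step in the other variety, in log2 units.

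Among the largest rises, the AAA-type ATPases VIT_14s0066g02070 and VIT_14s0066g02100 exceeded the RG step by 5.88 and 5.63 and the IT step by 7.39 and 6.82. Fw2.2 ORFX (VIT_17s0000g03960) exceeded them by 4.63 and 6.31, SAG101 (VIT_05s0077g01720) by 3.35 and 4.99, and VvWRKY06 (VIT_04s0008g01470) by 3.78 and 4.42. For the F-box gene VIT_00s2507g00010 the fitted differences were 4.81 and 4.26, and for PYL4 (VIT_13s0067g01940) 5.89 and 7.15. No TS S2 array was above background for either gene, nor any RG or IT array at S2 or S3 for PYL4, so these values passed the test but measure no size. The same holds for Fw2.2 ORFX against RG, where no RG S2 array was above background. Its difference from IT also rests mostly on background, with 1 IT array above it at S2 and 1 at S3. The 3 chitinases VIT_16s0050g02220, VIT_16s0050g02210 and VIT_16s0050g02230 exceeded the RG step alone, by 4.24, 4.41 and 4.47. VvERF021 (VIT_02s0025g04460), the lectin VIT_15s0024g00410 and the TIR-NBS-LRR gene VIT_18s0041g02210 exceeded the IT step alone, by 6.33, 5.62 and 5.96. VvERF021 was also high at TS S1 (mean 3.95) and RG S3 (4.65), and its IT arrays scattered (SD 1.57 at S2 and 2.65 at S3). The lectin and the TIR-NBS-LRR gene were each above background on 2 IT S2 arrays, with SDs there of 1.93 and 2.51.

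Genes chosen for their difference from RG also include several that differed from IT. The monooxygenase VIT_04s0044g00220 differed by 7.20 and 5.38, the OPR gene GSVIVT01025922001 by 5.89 and 3.94, PDR12 (VIT_09s0002g05390) by 5.61 and 5.34, and the glucosyltransferase VIT_03s0017g02000 by 5.61 and 3.67. Sulfate transporter 3.1 (VIT_05s0020g03970) differed from RG alone, by 5.99. In the other direction VvAP34 (VIT_14s0060g00330) differed by -6.69 and -5.57, the bHLH gene VIT_14s0108g00420 by -5.40 and -4.09, and the MtN3-type gene VIT_17s0000g00830 by -4.97 and -4.66. The universal stress protein genes VIT_14s0060g01300 and VIT_14s0060g01320 differed from RG alone, by -5.04 and -5.03.

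Of the genes that the study names, VviIFR (VIT_03s0038g04700) differed by -2.14 and -2.23, VviMJE (VIT_00s0253g00080) from RG alone by -3.26, and inner no outer (VIT_01s0127g00330) from IT alone by -2.33. Among the falls, MtN3-type VIT_18s0001g15330 differed by -3.16 and -3.09, and inositol transporter 4 (VIT_10s0405g00050) from IT alone by -2.24. Fitted differences of -5.18 and -4.99 for the O-methyltransferase VIT_12s0028g02800, and of -3.92 from RG alone for the polygalacturonase VIT_13s0064g00750, rest on TS S3 arrays that were all at background and measure no size. The 3-ketoacyl-CoA synthase VIT_16s0022g01570 had a fitted difference of 4.23 from RG, where it fell further than in TS and was above background on no S3 array.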

How the results depend on the processing

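Calls for the TS step, its difference from RG and its difference from IT numbered 2964, 1735 and 2344. No probe was called in opposite directions in the main fit and in any alternative run. With no scaling they were 1259, 393 and 313, over probes above background on all 36 arrays 748, 391 and 747 (9192 probes tested), and with array weights 6294, 7101 and 8548. Quantile normalization gave 1109 against RG, and normexp correction 1604 for the TS step and 866 against RG. Slide as a random block gave 3129 and 3643 for the 2 differences, and the scan session 2659 and 3545. The methods' t-test gave 4028 calls for the TS step unadjusted and 1842 after Benjamini-Hochberg. Leaving out 1 array gave 2040 to 2947, 1126 to 1893 and 1473 to 2705. Without TS S3 replicate 3 the differences numbered 1126 and 1495, and without IT S3 replicate 2 the difference from IT 1473. The causes were not tested.

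Over 3008 values of named genes, 2693 kept direction and side of the threshold, 277 lost the call, 30 gained it and 8 turned sign. VviIFR (VIT_03s0038g04700) was -0.019 with no scaling. VviMJE (VIT_00s0253g00080) was 0.021 with the slide as a random block, 0.20 without TS S2 replicate 1, 0.20 without TS S2 replicate 2, -0.69 without TS S2 replicate 3 and 0.37 with the scan session. VIT_14s0060g01300 was 0.046 with the slide as a fixed block. After normexp correction VIT_19s0085g00800 was 0.15 and VIT_01s0011g00170 was 0.13. The values that turned sign were all at or near background or were not called in the main fit.

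The replicate numbers did not pair the samples (correlations of same-numbered deviations -0.105, 0.167 and 0.129). With a replicate block the counts were 3279, 1977 and 2693. Signal over background was lacking on all S2 arrays for 82 called probes and on all S3 arrays for 281.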

Other observations

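The study's own functional categories, read after the values were seen and with no test, add groups that the lists did not cover. Of 76 protein kinase probes, 18 rose from S2 to S3 in TS and 6 fell, against 7.72% and 5.63% of all probes, and 12 had a higher and 7 a lower step than in RG. Propanoate metabolism had 9 rises and 1 fall of 26, and AAA-type ATPases 5 and 2 of 40. Of 134 multidrug ABC transport probes 15 rose and 9 fell, while 22 had a higher step in TS than in RG. Of 35 cell growth and death probes 6 fell, and of 30 microtubule-driven movement probes 3 fell. Of all described probes 8.71% rose and 8.90% fell, and 5.01% had a higher and 8.12% a lower step than in RG. The microtubule falls and the protein kinases with a lower step than in RG were near these shares. The categories come from a table of genes chosen on these samples, so their counts are not independent of the comparison with seeded varieties.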
